A study of Mus musculus with 12 samples.

Results

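Voltage-gated calcium channel subunits, calcium pumps, sodium-calcium exchangers and calmodulin-dependent (CaM) kinases were described in mouse striatum. The members were all genes whose symbol begins with Cacna, Cacnb, Cacng, Atp2a, Atp2b, Atp2c, Slc8a, Slc24a or Camk, followed by a number for the pump and exchanger families. Antisense and pseudogene names were left out. This gave 57 genes of 51912 in the deposited tables, in 17 subfamilies. All 57 passed the filter on low counts.

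Total RNA from the striatum of mice aged 10.5 weeks was sequenced in 12 libraries, 3 in each of 4 groups. R6/2-T was R6/2 with a virus expressing a short hairpin RNA (shRNA) against TRAX, and R6/2-C was R6/2 with the control virus. WT-T was wild type with the TRAX virus, and WT-C was wild type with the control virus. R6/2 mice, a model of Huntington disease (B6CBA-Tg(HDexon1)62Gpb/3J), carry the first exon of human HTT with an expanded CAG repeat as a transgene, and were mated with B6CBAFI/J mice. All 4 groups had an adeno-associated virus injected into both striata at 5 weeks of age, so no group was free of injection. TRAX, encoded by Tsnax, is the partner of the RNA-binding protein translin. No label states that the libraries of a group come from different animals; the p-values therefore reflect the variation among libraries, which may be technical.

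Calcium enters neurons through voltage-gated channels, in which an alpha1 subunit forms the pore and the alpha2delta and beta subunits set its trafficking and gating. Pumps in the plasma membrane (PMCA), the endoplasmic reticulum (SERCA) and the Golgi (SPCA), and exchangers driven by sodium (NCX, NCKX), remove calcium from the cytosol. Calmodulin loaded with calcium activates CaM kinases, of which CaMKII is the main kinase of the postsynaptic density and CaMKK switches on CaMKI and CaMKIV. Medium spiny neurons, the projection neurons of the striatum, are rich in CaMKII and its inhibitor proteins.

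The label check and the makeup of the tissue were read from each library. Tsnax lay between 15.2 and 17.7 FPKM (reads per gene, corrected for the length of its transcripts and the depth of the library) in R6/2-T, against 64.0 to 76.0 in R6/2-C, and between 10.3 and 12.96 in WT-T, against 55.6 to 64.7 in WT-C. StringTie counts, the values tested, summed to 131783370 to 229332386 per library. They ran at a median of 3.07 to 5.52 counts per scaled Cuffdiff fragment in a library (13979 genes with a mean of at least 100 fragments), so 1 count is not 1 fragment. The summed FPKM of 14 medium spiny neuron markers was 1226 to 1303 in R6/2-T, 1650 to 1868 in R6/2-C, 3076 to 3681 in WT-T and 3042 to 3603 in WT-C, so the genotypes did not overlap. The 8 astrocyte markers summed to 538 to 555 in R6/2-T, 441 to 643 in R6/2-C, 702 to 1049 in WT-T and 905 to 1097 in WT-C. The 9 oligodendrocyte markers summed to 1483 to 1565 in R6/2-T, 1532 to 1995 in R6/2-C, 2079 to 2933 in WT-T and 2266 to 3238 in WT-C. In bulk RNA, fewer cells of a type and less RNA per cell cannot be told apart, and the part of these marker differences in the results was not tested. Microglia markers (7 genes) summed to 164 to 217 in R6/2-T, 223 to 576 in R6/2-C, 263 to 871 in WT-T and 328 to 719 in WT-C. The 8 striatal interneuron markers summed to 201 to 232 in R6/2-T, 225 to 305 in R6/2-C, 312 to 336 in WT-T and 253 to 308 in WT-C. The 5 blood markers summed to 52.4 to 97.7 in R6/2-T, 54.6 to 117 in R6/2-C, 134 to 209 in WT-T and 120.1 to 131 in WT-C. The 8 endothelial and mural markers summed to 55.8 to 68.0 in R6/2-T, 59.5 to 66.6 in R6/2-C, 65.6 to 79.8 in WT-T and 75.1 to 86.9 in WT-C. The part of these lists was not tested either. The 7 cortical excitatory neuron markers summed to 23.7 FPKM at most in any library. The 6 choroid plexus markers varied within groups, with sums of 648 to 1176 in R6/2-T, 79.0 to 1225 in R6/2-C, 93.0 to 799.6 in WT-T and 89.8 to 221 in WT-C.

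Levels of the 57 members spanned the whole range of expression. The mean over the 12 libraries reached 100 FPKM for 6 members: Camk2a, Atp2b1, Camk2n1, Camk2b, Camkv and Atp2a2. Another 32 lay between 10 and 100 FPKM and 13 between 1 and 10 FPKM. The remaining 6, under 1 FPKM, were Atp2a1, Atp2c2, Cacna1f, Cacng1, Slc24a1 and Slc24a5.

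**Figure D1:**
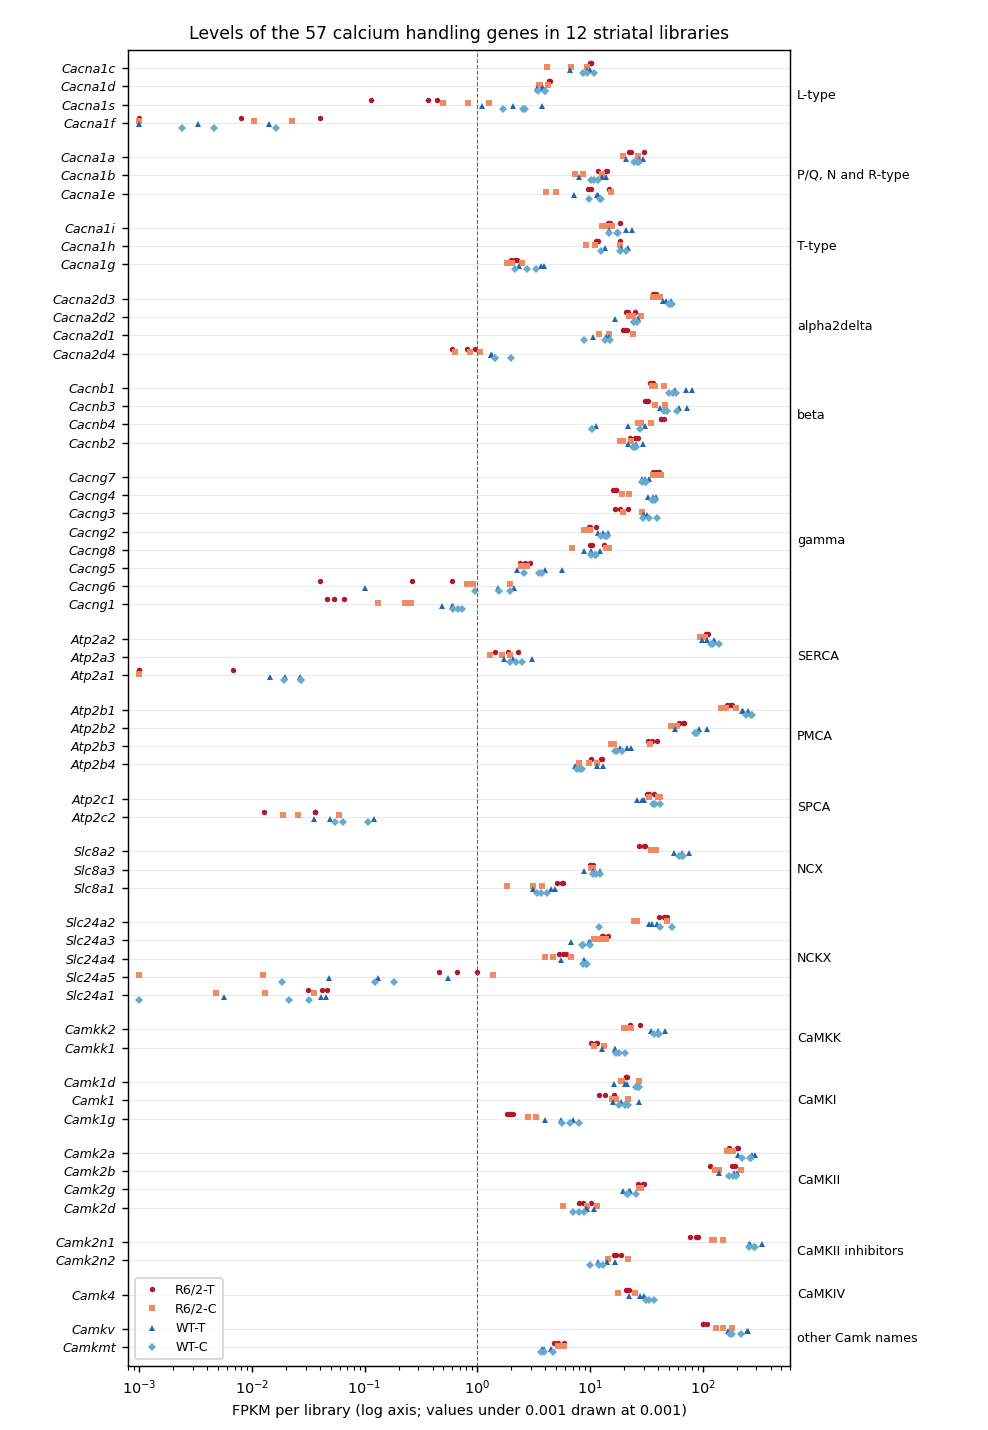
FPKM of the 57 members in each library, on a log axis, grouped by subfamily, with 3 points per group (R6/2-T, R6/2-C, WT-T, WT-C). Camk2a, Atp2b1, Camk2n1, Camk2b, Camkv and Atp2a2 lie at the right, and 6 members lie left of the dashed line at a mean under 1 FPKM.

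Fewer calcium handling transcripts rose than fell in R6/2 striatum. With the control virus, 14 of the 57 members were lower and 1 was higher in R6/2-C than in WT-C at an adjusted p under 0.05, where 4.22% of all 23453 genes tested were lower and 4.87% higher (9.09% either way). With the TRAX virus, 14 members were lower and 2 higher in R6/2-T than in WT-T, where 11.1% of all genes were lower and 11.5% higher (22.6% either way). Called members thus made up 26.3% of the list in the first comparison and 28.1% in the second. Over the 51 members with a mean of at least 1 FPKM, 12 were lower and 1 higher in R6/2-C, beside 5.04% and 7.01% of all genes at that level. In R6/2-T, 13 of the 51 were lower and 2 higher, beside 12.9% and 16.5% of such genes. Either way, 25.5% of the 51 were called in R6/2-C, beside 12.0% of such genes. In R6/2-T the share called either way was 29.4% for both. The median log2 fold change of the 57 was -0.38 for R6/2-C over WT-C (all genes -0.02), and -0.33 with Atp2a1, at 0 counts in R6/2-C, set at a floor of 3 fragments per library. For R6/2-T over WT-T the median was -0.30 (all genes -0.05).

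The 2 genotype comparisons share no library. Both called 9 members, which is 60.0% of the 15 and 56.2% of the 16, and all 9 were lower in R6/2 in each: Cacna2d3, Cacng1, Cacng4, Slc8a2, Camkk1, Camkk2, Camk1g, Camk2n1 and Camkv. Over all genes, 1447 were called in both, which is 67.9% of 2131 and 27.3% of 5304. The sign matched in 48 of the 57 members, and 35 were negative in both. Of all 23453 genes, the sign matched in 16786, and 9024 were negative in both. In the deposited table (GRCm38), Camk2n1 lies at chr4:138454314-138460123, Camk1g at chr1:193346346-193370298, Camkk2 at chr5:122731170-122779409, Slc8a2 at chr7:16129826-16161063 and Cacng4 at chr11:107732357-107794557. These 5 kept their call in both comparisons under every alternative, as Cacng1 did.

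**Figure D2:**
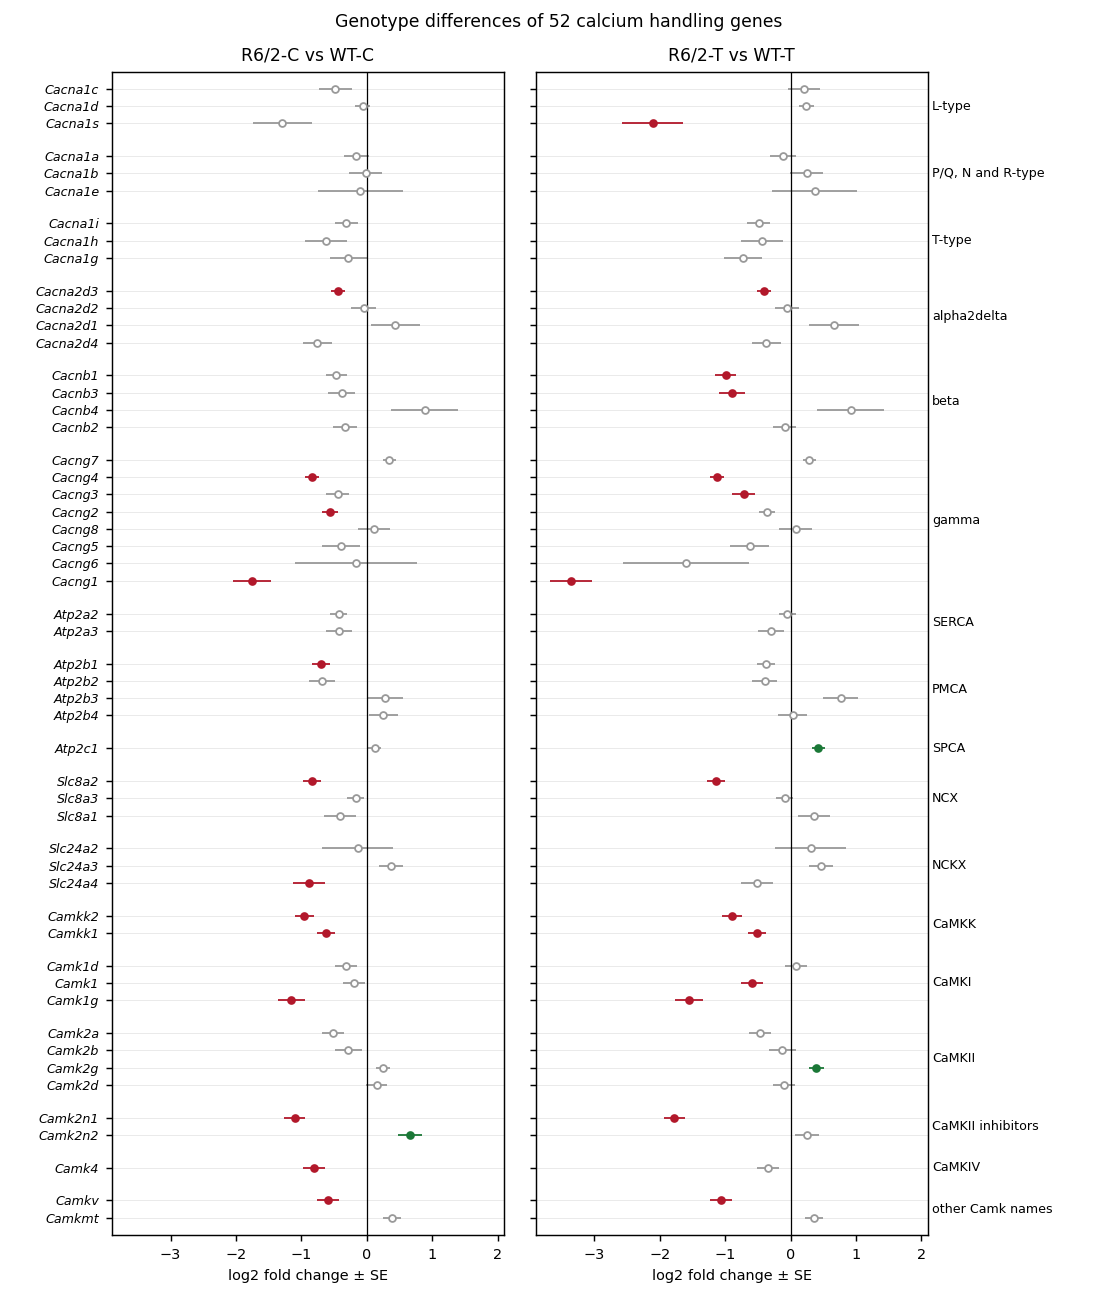
Log2 fold change ± SE (edgeR) of R6/2-C over WT-C and of R6/2-T over WT-T for 52 members, by subfamily (the other 5, under 1 FPKM, are not drawn). Filled red points are called lower and filled green points called higher in R6/2. Filled points are mostly left of 0 in both panels.

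RefSeq promoter windows, GRCm38.p6, were matched by symbol to look for letters that these genes share. A window existed for 6 of the 9 genes called in both comparisons and for 44 members. The motif searched was the GC box, GGGCGG, on both strands, in the 250 bases before the annotated start. It was present for 5 of those 6 genes and 27 of the 44 members, and in 32.7% of all 32851 windows. The 110 bases nearest the start are shown, in the direction of transcription with the motif in capitals, for the 4 genes whose window lies outside the gene bounds in the deposited table. They come from chr14:29721865-29721974 (minus strand), chr7:16129716-16129825 (plus strand), chr11:73018878-73018987 (plus strand) and chr5:122779411-122779520 (minus strand).
Cacna2d3: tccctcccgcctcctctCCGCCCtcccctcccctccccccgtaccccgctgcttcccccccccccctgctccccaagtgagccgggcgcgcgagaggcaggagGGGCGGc
Slc8a2: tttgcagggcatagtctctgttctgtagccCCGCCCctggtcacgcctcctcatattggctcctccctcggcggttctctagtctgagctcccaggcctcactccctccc
Camkk1: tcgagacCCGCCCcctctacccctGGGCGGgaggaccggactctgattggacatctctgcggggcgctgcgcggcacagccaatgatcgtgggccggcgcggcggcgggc
Camkk2: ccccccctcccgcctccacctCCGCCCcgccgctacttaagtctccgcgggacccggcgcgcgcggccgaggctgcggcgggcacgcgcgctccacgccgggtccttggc
All 4 stretches hold at least 1 match. Of the genes with a window that is not shown, Camkv held 3 matches in the 250 bases and Camk1g held 0. A match is a description of the letters and not a binding site.

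Of the 14 members with CaM kinase names, 6 were lower and 1 higher in R6/2-C than in WT-C, where 4.22% of all genes were lower and 4.87% higher. In R6/2-T against WT-T 6 were lower and 1 higher, where 11.1% of all genes were lower and 11.5% higher. Of the 26 channel subunits 4 were lower in R6/2-C and 7 lower in R6/2-T, and 0 were higher in either. Both upstream kinases were lower in R6/2 in both comparisons. Camkk2, the broadly expressed CaMKK of the brain, measured 27.5, 22.6 and 22.7 FPKM in R6/2-T, 22.2, 22.9 and 19.8 FPKM in R6/2-C, 35.1, 39.9 and 46.3 FPKM in WT-T and 40.6, 39.9 and 36.9 FPKM in WT-C. All 6 R6/2 libraries lay under all 6 wild-type libraries. The log2 fold change was -0.96 ± 0.15, adjusted p = 0.00423 for R6/2-C over WT-C (± SE, by edgeR unless another test is named), and -0.90 ± 0.15, adjusted p = 0.00201 for R6/2-T over WT-T. The call held under every alternative run. Camkk1 measured 11.2, 11.6 and 10.2 FPKM in R6/2-T, 13.2, 10.8 and 13.3 FPKM in R6/2-C, 12.8, 16.8 and 16.7 FPKM in WT-T and 17.1, 20.3 and 18.01 FPKM in WT-C, and fell less, to 64.8% of WT-C in R6/2-C (-0.63 ± 0.14, adjusted p = 0.0211) and 70.01% of WT-T in R6/2-T (-0.51 ± 0.14, adjusted p = 0.0218). R6/2 did not overlap wild type under the same virus. The Camkk1 call was lost for R6/2-C over WT-C without R6/2-C 2, R6/2-C 3, WT-C 1 or WT-C 2 (adjusted p = 0.0501 to 0.0699), and with only the 2 groups fitted (adjusted p = 0.0533). It was lost for R6/2-T over WT-T without R6/2-T 1, R6/2-T 2, R6/2-T 3, WT-T 2 or WT-T 3 (adjusted p = 0.0552 to 0.0826), and after the GC and length correction (adjusted p = 0.0922).

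Among the CaMKI kinases, which CaMKK phosphorylates, Camk1g was lower in both comparisons. Camk1g encodes a membrane-anchored, neuronal CaMKI and measured 2.07, 1.94 and 1.82 FPKM in R6/2-T, 3.33, 3.32 and 2.81 FPKM in R6/2-C, 4.0003, 7.06 and 5.48 FPKM in WT-T and 5.59, 7.92 and 6.63 FPKM in WT-C. The 6 R6/2 libraries were all lower than the 6 wild-type ones, with a log2 fold change of -1.16 ± 0.21, adjusted p = 0.00875 in R6/2-C over WT-C and -1.55 ± 0.21, adjusted p = 0.000778 in R6/2-T over WT-T, and no alternative ended these calls. Camk1, the widely expressed form, measured 11.99, 16.2 and 13.6 FPKM in R6/2-T, 16.97, 15.8 and 21.7 FPKM in R6/2-C, 27.2, 18.9 and 15.9 FPKM in WT-T and 18.2, 20.4 and 21.7 FPKM in WT-C. It was called lower in R6/2-T than in WT-T (-0.59 ± 0.17, adjusted p = 0.0283), although R6/2-T 2 lay above WT-T 3. That call was lost without R6/2-T 1, R6/2-T 3 or WT-T 1 (adjusted p = 0.0692 to 0.113), and on log2(FPKM + 0.1), on log2(FPKM + 1), with only the 2 groups fitted or with the replicate block (adjusted p = 0.0577 to 0.0782). An exon of Camk1 overlaps one of Ogg1 on the opposite strand, and the sources used here do not state whether counting used the strand. Camk1d, the most abundant CaMKI, measured 21.1, 20.999 and 21.01 FPKM in R6/2-T, 18.99, 27.4 and 19.1 FPKM in R6/2-C, 16.2, 20.6 and 21.1 FPKM in WT-T and 27.1, 25.4 and 26.7 FPKM in WT-C. It was not called in either comparison (-0.32 ± 0.17, adjusted p = 0.26 in R6/2-C, 0.08 ± 0.17, adjusted p = 0.762 in R6/2-T).

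Camk4, a nuclear kinase that phosphorylates CREB, was lower in R6/2-C than in WT-C (-0.81 ± 0.17, adjusted p = 0.0184). It measured 21.5, 20.9 and 22.3 FPKM in R6/2-T, 17.6, 24.8 and 17.8 FPKM in R6/2-C, 22.3, 27.96 and 30.2 FPKM in WT-T and 36.7, 31.7 and 33.7 FPKM in WT-C. The R6/2-C libraries lay under the WT-C libraries, with R6/2-C 2 above the other 2 of its group. In R6/2-T over WT-T the difference was -0.35 ± 0.17, adjusted p = 0.173. The Camk4 call in R6/2-C was lost without R6/2-C 1, R6/2-C 3 or WT-C 1 (adjusted p = 0.0637 to 0.0713), and with only the 2 groups fitted (adjusted p = 0.0569). Camk4 shares exon positions with 2310026I22Rik on the opposite strand.

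In the CaMKII group, the inhibitor gene Camk2n1 was lower in R6/2 in both comparisons, and of the 4 kinase genes Camk2g was called, higher in R6/2-T. Camk2n1 encodes a small protein that binds and blocks active CaMKII. It measured 76.7, 87.3 and 91.4 FPKM in R6/2-T, 153, 121 and 127 FPKM in R6/2-C, 259, 263 and 335 FPKM in WT-T and 289, 286 and 256 FPKM in WT-C. Every R6/2 library lay under every wild-type library, at 46.5% of WT-C in R6/2-C (-1.11 ± 0.16, adjusted p = 0.00296) and 29.2% of WT-T in R6/2-T (-1.78 ± 0.16, adjusted p = 0.000114), and each alternative kept both calls. The second inhibitor gene, Camk2n2, measured 16.99, 18.9 and 16.2 FPKM in R6/2-T, 21.7, 14.4 and 21.7 FPKM in R6/2-C, 11.9, 16.7 and 14.2 FPKM in WT-T and 13.1, 12.02 and 10.03 FPKM in WT-C, and was called higher in R6/2-C than in WT-C (0.66 ± 0.19, adjusted p = 0.0476). It was the only member called higher there. In R6/2-T over WT-T it stood at 0.26 ± 0.18, adjusted p = 0.347. The Camk2n2 call was lost without R6/2-C 1, R6/2-C 3, WT-C 1, WT-C 2 or WT-C 3 (adjusted p = 0.0729 to 0.157), and with RLE scaling, without the expression filter, with only the 2 groups fitted or with the replicate block (adjusted p = 0.0571 to 0.115).

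Camk2a, the alpha subunit of CaMKII in forebrain excitatory and striatal neurons, had the highest mean level of all members. It measured 208, 170.4 and 202 FPKM in R6/2-T, 186, 169.6 and 166 FPKM in R6/2-C, 207, 290.4 and 276 FPKM in WT-T and 268, 265 and 225 FPKM in WT-C. Its differences were -0.51 ± 0.17, adjusted p = 0.0793 in R6/2-C and -0.47 ± 0.17, adjusted p = 0.0644 in R6/2-T, neither past the threshold. Camk2g, the gamma subunit, measured 29.7, 30.2 and 26.8 FPKM in R6/2-T, 28.5, 27.1 and 28.5 FPKM in R6/2-C, 19.8, 22.8 and 22.2 FPKM in WT-T and 25.4, 21.3 and 21.7 FPKM in WT-C. The R6/2-T libraries lay above the WT-T libraries (0.39 ± 0.11, adjusted p = 0.0255), and R6/2-C also lay above WT-C (0.25 ± 0.11, adjusted p = 0.188, not called). The Camk2g call was lost without R6/2-T 1, R6/2-T 2, R6/2-T 3, WT-T 1 or WT-T 2 (adjusted p = 0.0532 to 0.0918), and with the replicate block (adjusted p = 0.0525). Camk2b and Camk2d were not called. Camk2d, the delta subunit, ranged from 5.80 to 11.6 FPKM over the 12 libraries.

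Camkv, a pseudokinase of dendritic spines that binds calmodulin without kinase activity, was lower in both comparisons. It measured 99.9, 109.9 and 101 FPKM in R6/2-T, 183, 131 and 151 FPKM in R6/2-C, 167, 247 and 249.8 FPKM in WT-T and 174, 221 and 183 FPKM in WT-C. R6/2-T lay under WT-T without overlap (-1.07 ± 0.17, adjusted p = 0.0015), and every alternative kept that call. In R6/2-C over WT-C the groups overlapped (-0.59 ± 0.16, adjusted p = 0.0465), with R6/2-C 1 at 183 FPKM above WT-C 1. This call was lost without R6/2-C 2, R6/2-C 3, WT-C 1, WT-C 2 or WT-C 3 (adjusted p = 0.0812 to 0.142), and on the scaled fragments, on log2(FPKM + 0.1), on log2(FPKM + 1), with RLE scaling, without the expression filter, with only the 2 groups fitted or with the replicate block (adjusted p = 0.0515 to 0.274). Camkmt, a methyltransferase of calmodulin, ranged from 3.66 to 5.88 FPKM and was not called.

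**Figure D3:**
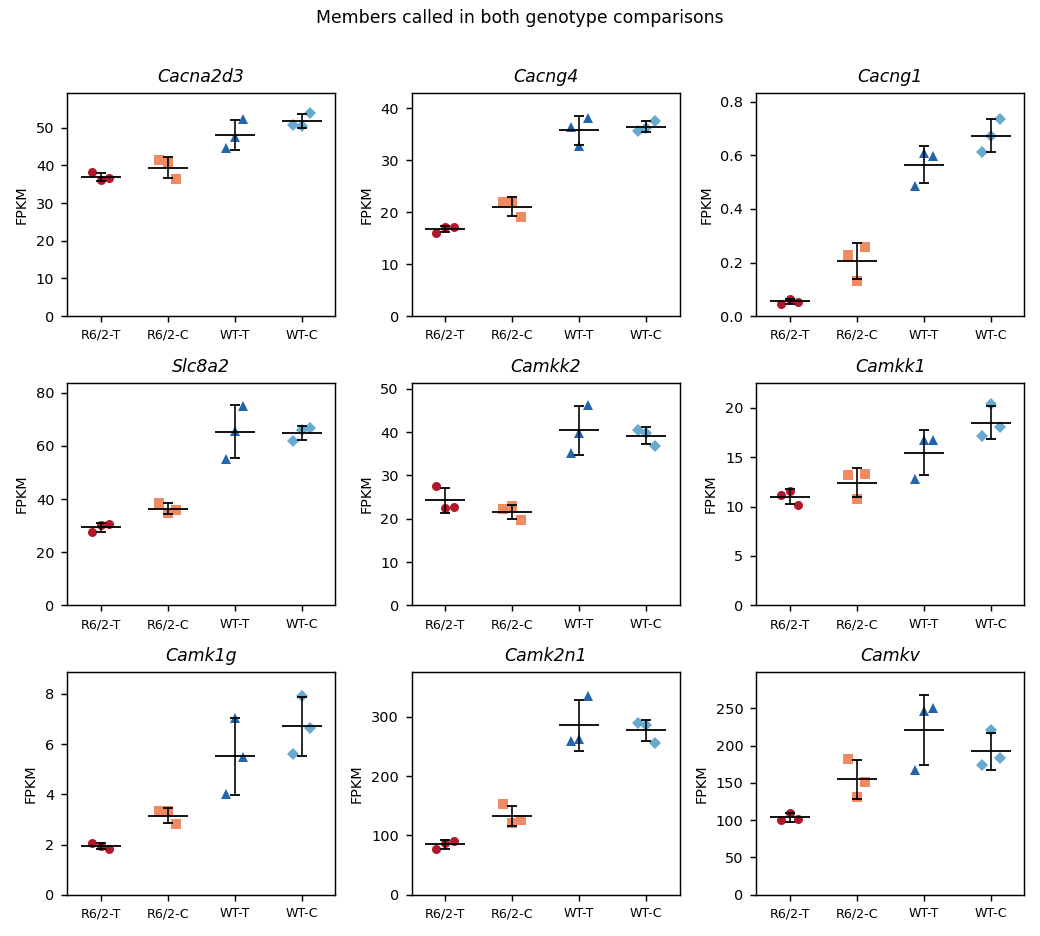
FPKM per library of the 9 members called in both genotype comparisons, with the mean and SD of each group of 3 (black bars). In every panel but that of Camkv the R6/2-C points lie below the WT-C points, and in all 9 the R6/2-T points lie below the WT-T points.

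Of the 10 pore-forming alpha1 subunits, 0 were called in R6/2-C over WT-C, where 9.09% of all genes were called. In R6/2-T over WT-T 1 was called, where 22.6% of all genes were called. Cacna1s, the L-type pore of skeletal muscle, measured 0.115, 0.436 and 0.366 FPKM in R6/2-T, 0.497, 0.818 and 1.27 FPKM in R6/2-C, 3.71, 2.06 and 1.105 FPKM in WT-T and 1.68, 2.52 and 2.67 FPKM in WT-C. It was lower in R6/2-T than in WT-T (-2.11 ± 0.47, adjusted p = 0.00917), with no overlap and under every alternative, and -1.30 ± 0.45, adjusted p = 0.0987 in R6/2-C, where the FPKM did not overlap WT-C either. Exons of Cacna1s overlap Gm37759 on the opposite strand. Summed FPKM of 8 skeletal and cardiac muscle markers was 2.96 to 3.42 in R6/2-T, 3.93 to 4.75 in R6/2-C, 5.47 to 7.22 in WT-T and 4.06 to 6.36 in WT-C, and 3 of the 8 were under 0.1 FPKM in every library. The part of these in the result was not tested.

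The neuronal L-type pores were not called. Cacna1c, the more abundant L-type pore, measured 9.93, 10.1 and 10.1 FPKM in R6/2-T, 6.74, 9.45 and 4.16 FPKM in R6/2-C, 6.65, 9.42 and 9.91 FPKM in WT-T and 10.7, 8.71 and 9.46 FPKM in WT-C. R6/2-C 3 was the lowest library. R6/2-C overlapped WT-C and R6/2-T lay just above WT-T, with -0.48 ± 0.25, adjusted p = 0.263 in R6/2-C over WT-C and 0.21 ± 0.25, adjusted p = 0.597 in R6/2-T over WT-T. Cacna1d, the L-type pore that opens at lower voltage, held between 3.38 and 4.46 FPKM in all libraries. Cacna1f, the retinal form, was at most 0.0400 FPKM.

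The presynaptic pores and the T-type pores were not called either. Cacna1a, the P/Q-type pore, measured 22.4, 30.3 and 23.3 FPKM in R6/2-T, 26.5, 26.7 and 19.6 FPKM in R6/2-C, 20.7, 27.1 and 29.4 FPKM in WT-T and 27.3, 26.05 and 24.4 FPKM in WT-C. Its groups overlapped (-0.16 ± 0.19, adjusted p = 0.649 in R6/2-C, -0.12 ± 0.19, adjusted p = 0.714 in R6/2-T). Cacna1b, the N-type pore, ranged from 7.41 to 14.1 FPKM and Cacna1e, the R-type pore, from 4.10 to 15.4 FPKM. Among T-type pores, which open near the resting potential, Cacna1i measured 14.5, 18.3 and 14.96 FPKM in R6/2-T, 14.2, 15.5 and 12.7 FPKM in R6/2-C, 14.7, 20.99 and 23.6 FPKM in WT-T and 17.7, 17.3 and 14.7 FPKM in WT-C. The difference was -0.31 ± 0.18, adjusted p = 0.308 in R6/2-C and -0.49 ± 0.18, adjusted p = 0.0706 in R6/2-T. Cacna1g ranged from 1.85 to 3.91 FPKM and Cacna1h from 9.16 to 21.9 FPKM.

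Of the alpha2delta subunits, which carry channels to the surface, Cacna2d3 was lower in both comparisons. It measured 38.1, 36.1 and 36.7 FPKM in R6/2-T, 41.4, 40.6 and 36.3 FPKM in R6/2-C, 44.5, 47.5 and 52.2 FPKM in WT-T and 50.8, 50.4 and 53.8 FPKM in WT-C. The 6 R6/2 libraries lay under the 6 wild-type ones, with a log2 fold change of -0.44 ± 0.11, adjusted p = 0.0322 in R6/2-C and -0.41 ± 0.11, adjusted p = 0.0211 in R6/2-T. The size changed little across alternatives, but the call in R6/2-C was lost without R6/2-C 1, R6/2-C 3, WT-C 1, WT-C 2 or WT-C 3 (adjusted p = 0.063 to 0.113), and with only the 2 groups fitted or with the replicate block (adjusted p = 0.0706 to 0.0752). The Cacna2d3 call in R6/2-T was lost without R6/2-T 1, R6/2-T 2, R6/2-T 3, WT-T 2 or WT-T 3 (adjusted p = 0.0514 to 0.0729). Cacna2d2 ranged from 16.6 to 28.1 FPKM and Cacna2d4 from 0.594 to 1.98 FPKM, with no call. Cacna2d1, a gabapentin-binding subunit, was not called by edgeR.

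The beta subunits, which bind the pore inside the cell, were called only in R6/2-T over WT-T, although no test of the difference between the 2 genotype comparisons passed for any member. Cacnb1 measured 34.2, 35.97 and 35.2 FPKM in R6/2-T, 45.04, 37.97 and 35.8 FPKM in R6/2-C, 56.2, 71.1 and 80.4 FPKM in WT-T and 49.7, 57.99 and 54.9 FPKM in WT-C. The R6/2-T libraries lay under the WT-T libraries (-0.99 ± 0.16, adjusted p = 0.00182, kept in every alternative), and R6/2-C under WT-C without a call (-0.47 ± 0.16, adjusted p = 0.0929). Cacnb3 measured 32.2, 32.98 and 30.8 FPKM in R6/2-T, 46.5, 37.4 and 37.9 FPKM in R6/2-C, 41.9, 62.1 and 72.3 FPKM in WT-T and 48.01, 59.4 and 45.6 FPKM in WT-C. R6/2-T lay under WT-T (-0.90 ± 0.20, adjusted p = 0.0104), while R6/2-C overlapped WT-C (-0.38 ± 0.20, adjusted p = 0.268). The Cacnb3 call was lost after the GC and length correction (adjusted p = 0.0557). Cacnb2 and Cacnb4 were not called. Exons of Cacnb1 overlap Gm11629, and exons of Cacnb2 and Cacnb4 overlap other genes, on the opposite strand.

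The gamma group holds both the muscle channel subunit Cacng1 and the transmembrane AMPA receptor regulatory proteins (TARPs), which escort glutamate receptors to synapses. Cacng4, a TARP, measured 16.1, 17.1 and 17.2 FPKM in R6/2-T, 21.97, 22.3 and 19.1 FPKM in R6/2-C, 36.4, 32.7 and 38.3 FPKM in WT-T and 35.7, 36.3 and 37.6 FPKM in WT-C. No R6/2 library reached any wild-type library. The log2 fold change was -0.84 ± 0.11, adjusted p = 0.00194 in R6/2-C and -1.13 ± 0.11, adjusted p = 0.000164 in R6/2-T, with both calls kept in all alternatives. Cacng1, its neighbour on chromosome 11 with no other gene between, was at a low level: 0.0462, 0.0653 and 0.0537 FPKM in R6/2-T, 0.229, 0.1299 and 0.259 FPKM in R6/2-C, 0.486, 0.6096 and 0.599 FPKM in WT-T and 0.611, 0.672 and 0.736 FPKM in WT-C. From low to high the groups stood in the order R6/2-T, R6/2-C, WT-T and WT-C, with no overlap between neighbours (the WT-T and WT-C difference was -0.22 ± 0.28, adjusted p = 0.973), and the genotype differences were -1.75 ± 0.29, adjusted p = 0.00626 in R6/2-C and -3.36 ± 0.32, adjusted p = 0.000164 in R6/2-T. No alternative ended either call. The counts behind this were 10, 12 and 12 in R6/2-T, 74, 29 and 53 in R6/2-C, 113, 194 and 180 in WT-T, and 131, 159 and 237 in WT-C. The scaled fragments were 1.16, 2.66 and 3.44 in R6/2-T, 12.6, 7.53 and 11.1 in R6/2-C, 28.2, 33.4 and 25.9 in WT-T and 33.2, 36.3 and 39.4 in WT-C. The size of the R6/2-T difference thus rests on few fragments and is uncertain, although R6/2-T and WT-T did not overlap.

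A further 2 TARPs were each called in 1 comparison. Cacng2, stargazin, measured 10.1, 11.2 and 9.76 FPKM in R6/2-T, 9.93, 8.91 and 9.18 FPKM in R6/2-C, 11.7, 13.03 and 14.5 FPKM in WT-T and 13.5, 14.04 and 12.4 FPKM in WT-C. R6/2-C lay under WT-C (-0.56 ± 0.12, adjusted p = 0.0199) and R6/2-T under WT-T without a call (-0.37 ± 0.12, adjusted p = 0.0508). The Cacng2 call was lost without R6/2-C 3, WT-C 1 or WT-C 2 (adjusted p = 0.0624 to 0.0733), and with only the 2 groups fitted (adjusted p = 0.0534). Cacng3 measured 18.6, 21.8 and 16.7 FPKM in R6/2-T, 29.1, 28.7 and 19.6 FPKM in R6/2-C, 29.5, 30.004 and 32.3 FPKM in WT-T and 29.2, 39.2 and 33.5 FPKM in WT-C. R6/2-T lay under WT-T (-0.71 ± 0.18, adjusted p = 0.0143), and the difference for R6/2-C over WT-C was -0.44 ± 0.17, adjusted p = 0.137. The Cacng3 call was lost without R6/2-T 1 or R6/2-T 3 (adjusted p = 0.0534 to 0.059), and after the GC and length correction (adjusted p = 0.0602). Cacng7, with the highest FPKM of the group, measured 38.1, 40.8 and 36.2 FPKM in R6/2-T, 43.04, 39.4 and 36.1 FPKM in R6/2-C, 33.2, 28.9 and 31.01 FPKM in WT-T and 31.2, 30.6 and 28.8 FPKM in WT-C and was not called. In FPKM both R6/2 groups lay above their wild-type groups (0.34 ± 0.10, adjusted p = 0.0561 in R6/2-C, 0.28 ± 0.10, adjusted p = 0.0634 in R6/2-T). Its scaled fragments were 284, 173 and 164 in R6/2-T, 158, 188 and 192 in R6/2-C, 109.8, 122 and 228 in WT-T and 201, 151 and 91.9 in WT-C, fewer than those of Cacng4 in every library and with overlap between R6/2 and wild type. Cacng8 likewise had 18.2 to 219.8 scaled fragments. Cacng5 ranged from 2.25 to 5.63 FPKM, Cacng6 from 0.0401 to 2.12 FPKM and Cacng8 from 6.86 to 14.9 FPKM, with no call.

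Among the pumps, 1 PMCA gene was called with an ample level. Of the 9 pumps, 2 were lower in R6/2-C and 1 was higher in R6/2-T. Of all genes 4.22% were lower in R6/2-C and 11.5% higher in R6/2-T. Atp2b1, the most abundant plasma membrane pump, measured 181, 164 and 175 FPKM in R6/2-T, 159, 196 and 145 FPKM in R6/2-C, 226, 223 and 254 FPKM in WT-T and 268, 243 and 272 FPKM in WT-C. Each R6/2 library lay under each wild-type library, and the difference was -0.70 ± 0.14, adjusted p = 0.0132 in R6/2-C and -0.37 ± 0.14, adjusted p = 0.0747, not called, in R6/2-T. The Atp2b1 call was lost without R6/2-C 1 or R6/2-C 3 (adjusted p = 0.0517 to 0.0524), and with only the 2 groups fitted (adjusted p = 0.0518). Atp2b2 did not pass in R6/2-C (-0.69 ± 0.20, adjusted p = 0.0526), where its FPKM was 51.9, 59.1 and 52.3 against 86.3, 89.6 and 85.1 in WT-C. Atp2b3 ranged from 15.3 to 39.4 FPKM and Atp2b4 from 7.33 to 13.1 FPKM.

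The endoplasmic reticulum pump of neurons, Atp2a2, measured 112, 108 and 108 FPKM in R6/2-T, 93.96, 104 and 94.5 FPKM in R6/2-C, 99.2, 109 and 127 FPKM in WT-T and 139.9, 119 and 123 FPKM in WT-C. R6/2-C lay under WT-C without passing the threshold (-0.43 ± 0.13, adjusted p = 0.0641), and R6/2-T overlapped WT-T (-0.05 ± 0.13, adjusted p = 0.823). Atp2a3 ranged from 1.30 to 3.04 FPKM and was not called. Atp2a1, the fast skeletal muscle pump, was called lower in R6/2-C (adjusted p = 0.0455) at a level next to nothing. Its counts were 0, 0 and 0 in R6/2-C and 12, 6 and 25 in WT-C, a mean of 14.3, beside a floor of 3 fragments that equals 12.9 such counts. The scaled fragments were 0, 0 and 3.44 in R6/2-T, 0.741, 3.23 and 1.11 in R6/2-C, 6.04, 3.88 and 3.58 in WT-T and 2.37, 1.07 and 2.92 in WT-C, where R6/2-C overlaps WT-C and no fold is given. The Atp2a1 call was lost without R6/2-C 1, R6/2-C 2, R6/2-C 3, WT-C 1, WT-C 2 or WT-C 3 (adjusted p = 0.0788 to 0.125), and on the scaled fragments, on log2(FPKM + 0.1), on log2(FPKM + 1), without the expression filter or with the replicate block (adjusted p = 0.0667 to 0.826). Its exons overlap Rabep2 on the opposite strand.

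The Golgi pump Atp2c1, which loads calcium and manganese, was higher in R6/2-T than in WT-T (0.42 ± 0.10, adjusted p = 0.0132). It measured 33.04, 31.8 and 37.1 FPKM in R6/2-T, 40.2, 33.5 and 41.7 FPKM in R6/2-C, 28.8, 26.4 and 30.2 FPKM in WT-T and 41.99, 36.2 and 37.9 FPKM in WT-C. R6/2-T lay above WT-T, and WT-T itself lay under WT-C, whereas R6/2-C overlapped WT-C (0.12 ± 0.10, adjusted p = 0.494). After the correction for GC content and length the log2 difference was 0.06. The Atp2c1 call was lost without R6/2-T 3 or WT-T 2 (adjusted p = 0.0541 to 0.0794), and on log2(FPKM + 0.1), on log2(FPKM + 1) or after the GC and length correction (adjusted p = 0.124 to 0.717). Atp2c2 was at most 0.122 FPKM.

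The exchangers were called in 1 gene of each family. Of the 8 exchangers, 2 were lower in R6/2-C and 1 in R6/2-T, where 4.22% and 11.1% of all genes were lower. Slc8a2, the neuronal sodium-calcium exchanger NCX2, measured 27.5, 30.3 and 30.5 FPKM in R6/2-T, 38.6, 34.9 and 35.7 FPKM in R6/2-C, 55.2, 65.5 and 75.03 FPKM in WT-T and 61.6, 65.8 and 66.7 FPKM in WT-C. The 6 R6/2 libraries all lay under the 6 wild-type libraries, at 55.8% of WT-C in R6/2-C (-0.84 ± 0.13, adjusted p = 0.00485) and 45.4% of WT-T in R6/2-T (-1.14 ± 0.13, adjusted p = 0.000414), under every alternative. The other two NCX genes were not called: Slc8a1 ranged from 1.85 to 5.74 FPKM and Slc8a3 from 8.80 to 12.3 FPKM.

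Slc24a4, a potassium-dependent exchanger, was lower in R6/2-C than in WT-C (-0.89 ± 0.24, adjusted p = 0.0449). It measured 5.35, 5.72 and 6.15 FPKM in R6/2-T, 4.72, 6.81 and 4.02 FPKM in R6/2-C, 5.52, 8.83 and 8.83 FPKM in WT-T and 9.201, 8.67 and 9.43 FPKM in WT-C. R6/2-C lay under WT-C, and R6/2-T overlapped WT-T (-0.51 ± 0.24, adjusted p = 0.153). The Slc24a4 call was lost without R6/2-C 1, R6/2-C 3, WT-C 1, WT-C 2 or WT-C 3 (adjusted p = 0.0973 to 0.137), and without the expression filter, with only the 2 groups fitted or with the replicate block (adjusted p = 0.0526 to 0.0776). Slc24a2, the most abundant of its family, measured 48.2, 44.98 and 41.1 FPKM in R6/2-T, 26.2, 47.95 and 24.7 FPKM in R6/2-C, 33.3, 35.5 and 38.9 FPKM in WT-T and 53.4, 11.97 and 41.7 FPKM in WT-C. WT-C 2 stood far under its group, and the difference was -0.14 ± 0.54, adjusted p = 0.901 in R6/2-C and 0.31 ± 0.54, adjusted p = 0.73 in R6/2-T. Slc24a3 ranged from 6.77 to 14.4 FPKM, Slc24a1 was at most 0.0459 FPKM and Slc24a5 at most 1.36 FPKM, with no call.

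The deposited tables quantify each library in more than one way, and for a few members the values disagreed. Scaled fragments headed Cuffdiff were tested with limma-trend as an added alternative, chosen after the data were seen. They called 21 members in R6/2-C over WT-C (2 higher, 19 lower), 13 of them shared with the 15 above, and 23 in R6/2-T over WT-T (5 higher, 18 lower), 16 of them shared with the 16 above. More genes were also called over all 23453. In R6/2-C they were 2606 (1206 higher, 1400 lower), beside 2131 by edgeR. In R6/2-T they were 5995 (3083 higher, 2912 lower), beside 5304 by edgeR. Of the 51 members with at least 1 FPKM, 4 had a within-group SD more than 2 times larger in StringTie counts than in scaled fragments: Cacna1e, Cacna2d1, Cacnb4 and Slc24a2. Another 3 had an SD more than 2 times larger in the scaled fragments: Cacng7, Cacng8 and Cacna1s. Which of the values is nearer to the RNA level was not tested.

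Cacna2d1 shows how far this reaches. Its FPKM was 21.2, 19.6 and 20.1 FPKM in R6/2-T, 14.8, 24.3 and 12.1 FPKM in R6/2-C, 10.5, 13.9 and 14.9 FPKM in WT-T and 14.98, 8.76 and 13.6 FPKM in WT-C, with R6/2-C 2 and WT-C 2 apart from their groups. The log2 difference by edgeR was 0.44 ± 0.38, adjusted p = 0.51 in R6/2-C and 0.66 ± 0.38, adjusted p = 0.236 in R6/2-T. The scaled fragments were 10579, 9253 and 10354 in R6/2-T, 6878, 7546 and 7374 in R6/2-C, 4092, 4585 and 5485 in WT-T and 4983, 4555 and 4099 in WT-C, so that all 6 R6/2 libraries stood above all 6 wild-type ones. On those values Cacna2d1 was higher in R6/2-C (0.68, adjusted p = 0.00384) and in R6/2-T (1.10, adjusted p = 8.94e-05).

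Camk2b, the beta subunit that ties CaMKII to actin, differed in the same way. Its FPKM was 192, 181 and 116 FPKM in R6/2-T, 138, 128 and 221 FPKM in R6/2-C, 138, 191 and 202 FPKM in WT-T and 170.00, 199 and 187 FPKM in WT-C, with overlap between all groups (-0.28 ± 0.21, adjusted p = 0.43 in R6/2-C, -0.13 ± 0.21, adjusted p = 0.708 in R6/2-T). The scaled fragments were 33948, 32669.9 and 33799 in R6/2-T, 40439.9, 38598 and 35156 in R6/2-C, 45029, 54477 and 63587 in WT-T and 53215, 61876 and 57086 in WT-C, and there each R6/2 library lay under each wild-type library. On that scale Camk2b was lower in R6/2-C (-0.59, adjusted p = 0.0109) and in R6/2-T (-0.69, adjusted p = 0.00185).

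Cacna1e was called lower in R6/2-C on the scaled fragments alone (-0.67, adjusted p = 0.0214), at 11268, 10811 and 10817 in R6/2-T, 7786, 11007 and 7520.5 in R6/2-C, 9030.3, 12123 and 13680.5 in WT-T and 14967, 12730.4 and 13726 in WT-C. Its FPKM held a single high R6/2-C library, R6/2-C 2 at 15.4, beside 5.03 and 4.10. Cacnb4 was called higher in R6/2-T (0.59, adjusted p = 0.0108), with scaled fragments of 15357, 13436 and 14017 in R6/2-T, 9681, 11517 and 9620.2 in R6/2-C, 7719, 9351 and 11835 in WT-T and 10699.9, 10398 and 8801 in WT-C. The FPKM of Cacnb4 was 27.99 in WT-C 1 and 10.4 and 10.3 in the other two WT-C libraries, a gap that the scaled fragments do not show. The other members called on the scaled fragments alone in R6/2-C were Atp2a2, Atp2b2, Cacna1h, Cacna2d4 and Camk2a, all lower. In R6/2-T they were Atp2b1, Cacna1h and Cacng6, which were lower, and Atp2b3, which was higher. Cacng6 had 0, 0 and 0 scaled fragments in R6/2-T and at most 11.6 in WT-T. Its call thus rests on few fragments, and no fold is given.

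**Figure D4:**
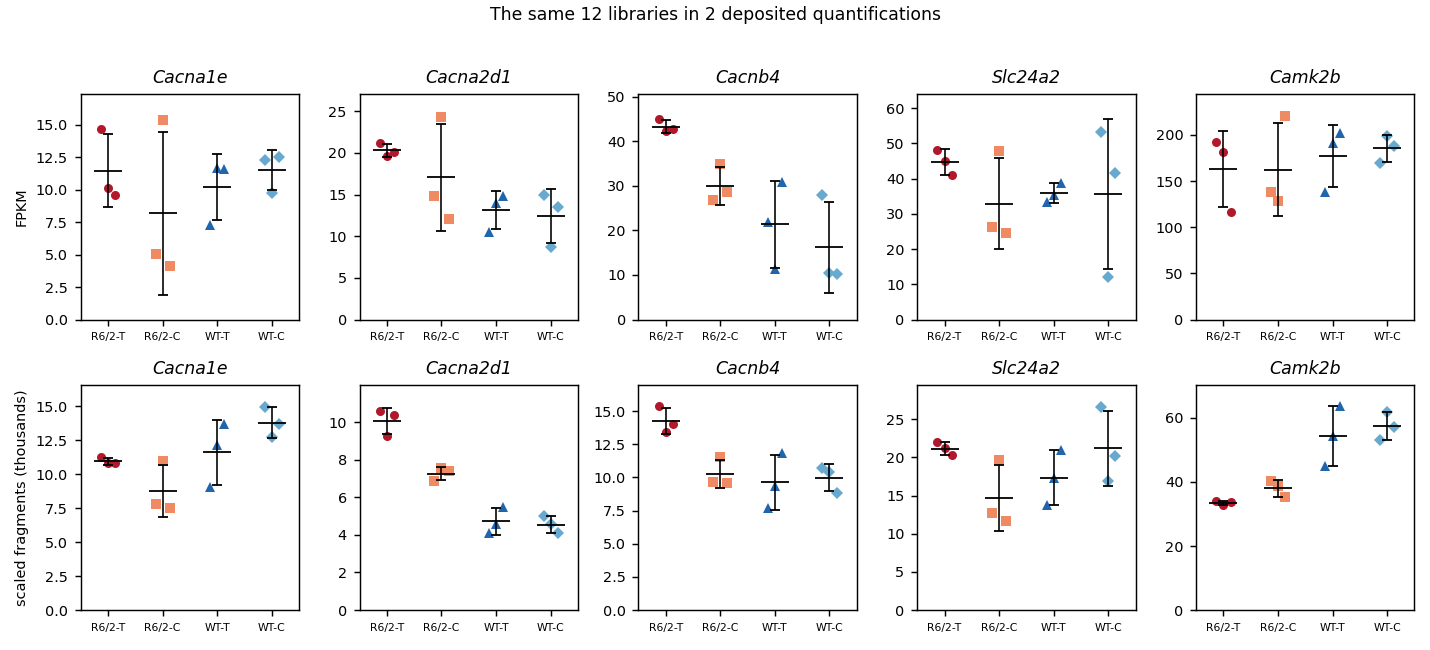
FPKM (top) and scaled fragments (bottom) per library for Cacna1e, Cacna2d1, Cacnb4, Slc24a2 and Camk2b, with the mean and SD of each group of 3. Single libraries stand apart in the top row (R6/2-C 2 in Cacna1e, WT-C 2 in Slc24a2) and lie nearer their groups in the bottom row.

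TRAX shRNA was compared with the control virus within each genotype. In R6/2-T against R6/2-C, edgeR called 0 members (16 genes in all, 0.0682% of those tested). An unadjusted p under 0.05 was found for 10 of the 57 members, beside 4513 of all 23453 genes. DESeq2 called 4 members (1741 of all genes), and limma-trend on the scaled fragments called 1 (482 of all genes). With limma-trend on log2(FPKM + 0.1), 0 members were called (50 of all genes). In WT-T against WT-C, edgeR called 0 members (0.00426% of all genes), with 5 members and 1512 of all genes at an unadjusted p under 0.05. DESeq2 and limma-trend also called 0 members, beside 116 of all genes by DESeq2. The interaction, the shRNA difference in R6/2 minus that in WT, was called for 0 members by edgeR (0.00426% of all genes). Its unadjusted p was under 0.05 for 4 members and 2751 of all genes. DESeq2 and limma-trend called it for 0 members, beside 190 of all genes by DESeq2. These p-values do not show that levels were equal. The median over the 57 members was 0.11 in R6/2 (all genes -0.03) and 0.01 in WT (all genes 0.00).

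Cacng1 had the smallest adjusted p in R6/2-T against R6/2-C (-1.83 ± 0.31, adjusted p = 0.053). Its FPKM of 0.0462, 0.0653 and 0.0537 in R6/2-T did not overlap the 0.229, 0.1299 and 0.259 in R6/2-C. The scaled fragments were 1.16, 2.66 and 3.44 in R6/2-T and 12.6, 7.53 and 11.1 in R6/2-C, so the size of the difference rests on few fragments. DESeq2 (adjusted p = 0.000618) and limma-trend on the scaled fragments (adjusted p = 0.0381) called Cacng1 lower. In WT-T over WT-C the difference was -0.22 ± 0.28, adjusted p = 0.973, and the interaction was -1.61 ± 0.42, adjusted p = 0.346.

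Camk2n1 and Camk1g also stood lower in R6/2-T than in R6/2-C, -0.60 ± 0.16, adjusted p = 0.0965 and -0.67 ± 0.20, adjusted p = 0.129 by edgeR, with no overlap of FPKM. DESeq2 called both, at an adjusted p of 0.0157 for Camk2n1 and 0.0422 for Camk1g. In WT-T over WT-C the same genes measured 0.07 ± 0.15, adjusted p = 0.996 and -0.27 ± 0.20, adjusted p = 0.918. Medium spiny neuron markers were also lower in R6/2-T than in R6/2-C, as given above, and their part was not tested.

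Slc8a1, the exchanger NCX1, stood higher in R6/2-T than in R6/2-C (0.96 ± 0.25, adjusted p = 0.0946). It measured 5.12, 5.69 and 5.74 FPKM in R6/2-T, 1.85, 3.74 and 3.13 FPKM in R6/2-C, 3.13, 4.53 and 4.92 FPKM in WT-T and 3.698, 3.404 and 4.18 FPKM in WT-C. The R6/2-T libraries all lay above the R6/2-C libraries, and R6/2-C was the more spread group. DESeq2 called it (adjusted p = 0.00647). Without R6/2-C 2, edgeR called 4 members in this comparison: Slc8a1 (log2 1.21), Atp2b3 (log2 1.25), Cacng1 (log2 -2.06) and Slc24a5, whose counts were 222, 120 and 330 in R6/2-T and 0, 472 and 5 in R6/2-C. Atp2b3 measured 32.7, 35.8 and 39.4 FPKM in R6/2-T, 16.2, 34.3 and 15.3 FPKM in R6/2-C, 18.5, 22.9 and 21.1 FPKM in WT-T and 19.04, 16.6 and 17.4 FPKM in WT-C, where R6/2-C 2 lay among the R6/2-T libraries and the other two R6/2-C libraries under all 3 WT-C libraries. Its scaled fragments were 6557, 7158 and 7879 in R6/2-T, 3144, 6507 and 2843 in R6/2-C, 3505, 4623 and 4673 in WT-T and 3804, 3443 and 3260.5 in WT-C, with R6/2-C 2 just under the R6/2-T libraries and far above the other two of its group. R6/2-C 2 also stood apart in choroid plexus markers, where its sum of 1225 FPKM was the highest of its group. Ttr, the transport protein transthyretin of the choroid plexus, measured 600.5, 717 and 1092 FPKM in R6/2-T, 72.7, 1144 and 103 FPKM in R6/2-C, 761, 284 and 84.9 FPKM in WT-T and 210.3, 83.9 and 188.5 FPKM in WT-C. Their part in the values of Atp2b3 and Slc24a5 was not tested.

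**Figure D5:**
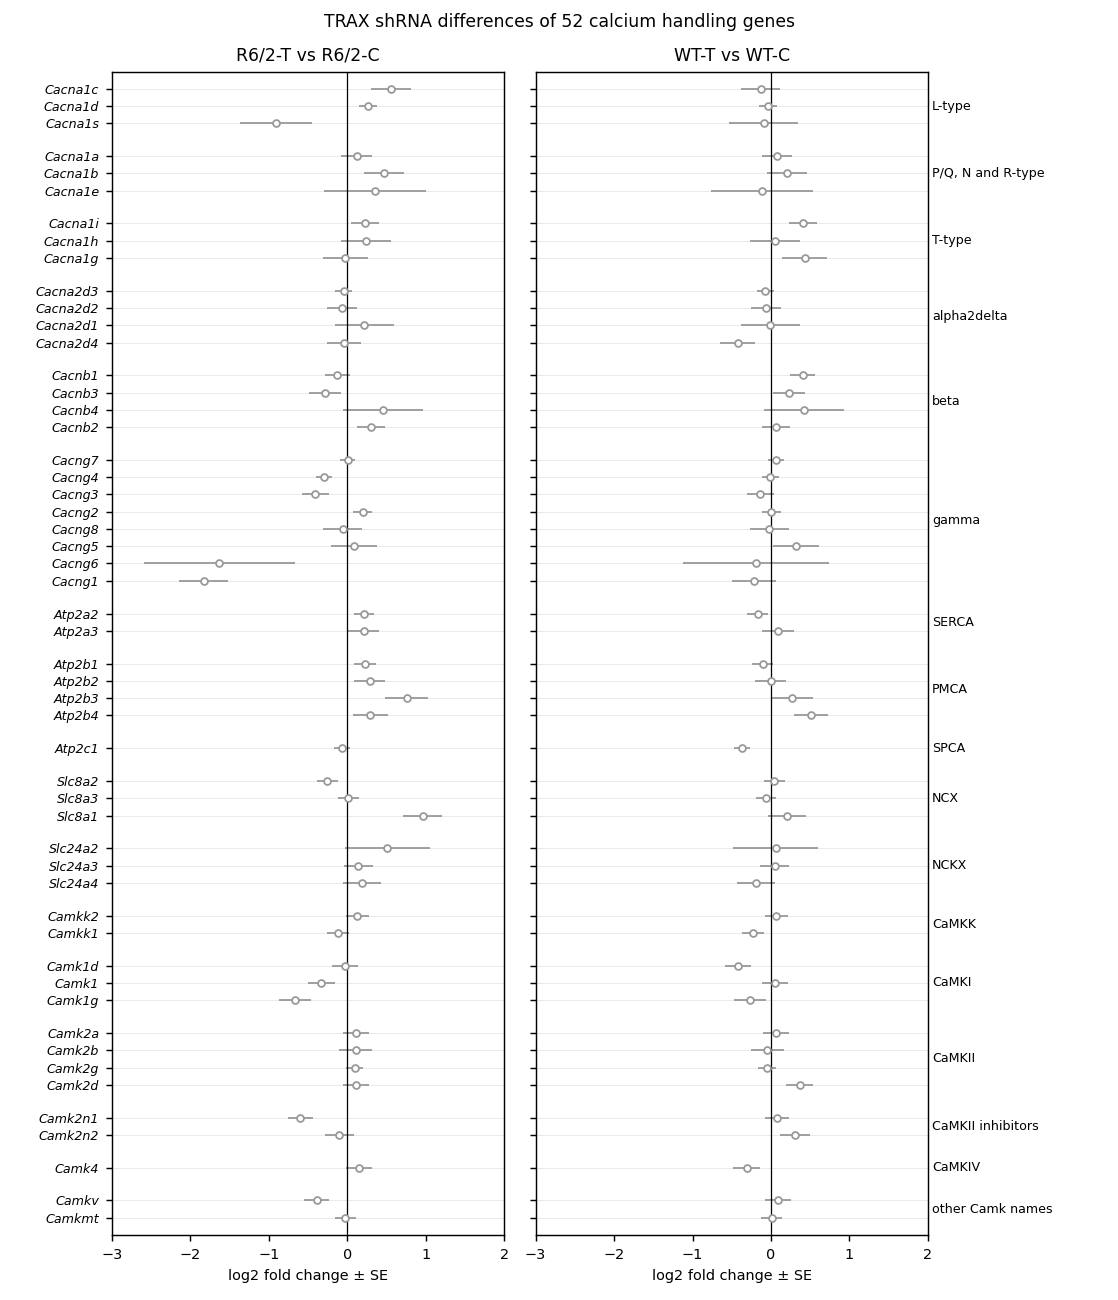
Log2 fold change ± SE (edgeR) of R6/2-T over R6/2-C and of WT-T over WT-C for 52 members. All points are open because none passed an adjusted p under 0.05. Cacng1, at -1.83, and Slc8a1, at 0.96, lie farthest from 0 relative to their SE in the left panel.

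A further table that the authors deposited sets R6/2-T over R6/2-C for 626 genes labelled as enriched in neurons. It lists 9 members, with a ratio over 1 for 5 and under 1 for 4. None of the 9 is marked significant in the authors' deposited table, although its q-value is under 0.05 for Camk1g (ratio 0.616, q = 0.0017) and Slc8a1 (ratio 1.90, q = 0.0058). The sources used here do not name the test behind it.

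Other genes of calcium signalling, outside the channel, pump and kinase families, moved in both directions. Of 6 calcium release channels, which empty the endoplasmic reticulum, 5 were lower in R6/2-C than in WT-C and 3 lower in R6/2-T than in WT-T (all genes, 4.22% and 11.1% lower), with 0 higher. Their median log2 fold change was -1.06 in R6/2-C and -0.66 in R6/2-T, beside the -0.02 and -0.05 of all genes. Ryr1, the ryanodine receptor first known from skeletal muscle, measured 0.7302, 0.876 and 0.645 FPKM in R6/2-T, 0.621, 0.809 and 0.551 FPKM in R6/2-C, 3.04, 3.63 and 4.22 FPKM in WT-T and 6.23, 5.93 and 6.19 FPKM in WT-C. Both R6/2 groups lay far under wild type, with a log2 fold change of -3.63 ± 0.20, adjusted p = 2.36e-05 in R6/2-C and -2.81 ± 0.19, adjusted p = 2.65e-05 in R6/2-T. Itpr1, the main inositol trisphosphate receptor of neurons, measured 171, 172 and 176 FPKM in R6/2-T, 82.96, 200.03 and 79.4 FPKM in R6/2-C, 153, 199 and 190.2 FPKM in WT-T and 206, 182 and 300.2 FPKM in WT-C, a difference of -0.99 ± 0.19, adjusted p = 0.0109 in R6/2-C and -0.68 ± 0.18, adjusted p = 0.0223 in R6/2-T. In FPKM, R6/2-C 2 lay within the range of WT-C and R6/2-T overlapped WT-T. The mean FPKM of Itpr1 was 173 in R6/2-T and 181 in WT-T. The -0.68 found on StringTie counts was thus hardly seen in FPKM, and which is nearer to the RNA level was not tested. Itpr3, the form of non-excitable cells, was -1.12 ± 0.20, adjusted p = 0.00815 in R6/2-C and -1.14 ± 0.20, adjusted p = 0.00255 in R6/2-T. Ryr3 was -1.24 ± 0.24, adjusted p = 0.0129 in R6/2-C.

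Calcium buffers and sensors gave 7 lower of 22 in R6/2-C, and 9 lower and 1 higher in R6/2-T, with a median of -0.41 in R6/2-C and -0.80 in R6/2-T. Of all genes 4.22% were lower in R6/2-C, and 11.1% were lower and 11.5% higher in R6/2-T. Those with the smallest p were Kcnip2, a potassium channel subunit that senses calcium (-1.11 ± 0.14, adjusted p = 0.00167 in R6/2-C, -1.51 ± 0.14, adjusted p = 0.000136 in R6/2-T), and Hpca, hippocalcin (-0.64 ± 0.09, adjusted p = 0.00351 in R6/2-C, -1.26 ± 0.10, adjusted p = 4.14e-05 in R6/2-T). Pcp4, which binds calmodulin, measured 169, 150.3 and 187 FPKM in R6/2-T, 274, 262 and 258 FPKM in R6/2-C, 499.6, 348 and 365 FPKM in WT-T and 509.8, 404 and 498 FPKM in WT-C. Its 6 R6/2 libraries lay under the wild-type ones (-0.88 ± 0.14, adjusted p = 0.0044 in R6/2-C, -1.27 ± 0.14, adjusted p = 0.000289 in R6/2-T). Pcp4l1, a related protein, was -1.06 ± 0.10, adjusted p = 0.000182 in R6/2-T. Calmodulin itself (4 genes tested) was not called in either comparison.

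Of 12 mitochondrial calcium genes, 4 were higher and 0 lower in R6/2-C, and 4 higher and 1 lower (Mcub, -0.87 ± 0.26, adjusted p = 0.0342) in R6/2-T, with a median of 0.20 in R6/2-C and 0.21 in R6/2-T. Of all genes 4.87% were higher in R6/2-C and 11.5% higher in R6/2-T, with medians of -0.02 and -0.05. Mcu, the pore of the mitochondrial uniporter, measured 13.8, 13.1 and 12.2 FPKM in R6/2-T, 12.6, 12.3 and 13.5 FPKM in R6/2-C, 9.16, 8.57 and 9.13 FPKM in WT-T and 8.97, 8.38 and 9.42 FPKM in WT-C. R6/2 lay above wild type under both viruses, with a log2 fold change of 0.48 ± 0.08, adjusted p = 0.0089 in R6/2-C and 0.52 ± 0.08, adjusted p = 0.00197 in R6/2-T. Vdac3, an outer membrane channel, was 0.57 ± 0.08, adjusted p = 0.00319 in R6/2-C and 0.50 ± 0.08, adjusted p = 0.00213 in R6/2-T, and Micu3, a brain subunit of the uniporter, 0.79 ± 0.16, adjusted p = 0.0159 in R6/2-C and 0.92 ± 0.16, adjusted p = 0.00302 in R6/2-T. Letm1 was 0.27 ± 0.07, adjusted p = 0.0455 in R6/2-C and 0.24 ± 0.07, adjusted p = 0.0375 in R6/2-T.

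Of the remaining lists, the channel modulators held 6 calls of 15 in R6/2-T, where 22.6% of all genes were called. In R6/2-C, 9.09% of all genes were called. The medians of these lists lay between -0.37 and 0.09 in R6/2-C and between -0.60 and 0.10 in R6/2-T. Of 15 channel modulators, 1 was higher (Nalcn, 0.40 ± 0.11, adjusted p = 0.0465) and 2 lower (Stac3, -2.25 ± 0.42, adjusted p = 0.0109, and Stac2, -0.96 ± 0.20, adjusted p = 0.018) in R6/2-C. Stac3 was at a low level, with 0.0779, 0.0488 and 0.166 FPKM in R6/2-C and 0.618, 0.542 and 0.435 FPKM in WT-C. In R6/2-T 1 was higher (Nalcn, 0.84 ± 0.11, adjusted p = 0.000718) and 5 lower, among them Stac2 (-1.34 ± 0.21, adjusted p = 0.00146) and Rem2, a GTPase that inhibits calcium channels (-0.93 ± 0.16, adjusted p = 0.00256). Of 10 calcineurin genes, Rcan3 (0.35 ± 0.10, adjusted p = 0.0466) and Chp1 (0.31 ± 0.09, adjusted p = 0.0484) were higher in R6/2-C. In R6/2-T Rcan3 was higher (0.48 ± 0.10, adjusted p = 0.00547) and Ppp3ca, the catalytic subunit, lower (-0.47 ± 0.12, adjusted p = 0.0157). Of 11 store-operated entry genes, Trpc1 was higher in both (0.44 ± 0.11, adjusted p = 0.0363 in R6/2-C, 0.51 ± 0.11, adjusted p = 0.00942 in R6/2-T), and the genes lower in R6/2-T included Orai1 (-0.71 ± 0.15, adjusted p = 0.00691). Of 7 pump regulators 0 were called in R6/2-C, and in R6/2-T Tmx1 was higher (0.63 ± 0.11, adjusted p = 0.00343) and Sln lower (-3.34 ± 0.96, adjusted p = 0.0291). Sln was at a level next to nothing, with 0.0302, 0.0389 and 0.0001 FPKM in R6/2-T and 0.0961, 0.225 and 0.381 FPKM in WT-T. Of 17 CaM kinase partners and targets 0 were called in R6/2-C, and those called in R6/2-T included Cask, which was higher (0.47 ± 0.12, adjusted p = 0.0157), and Hdac5, which was lower (-0.63 ± 0.19, adjusted p = 0.0303). Over the 104 genes of these 9 lists, edgeR called 0 in R6/2-T against R6/2-C, where 28 had an unadjusted p below 0.05 and DESeq2 called 15. Of all 23453 genes, 4513 had such a p there and DESeq2 called 1741. In WT-T against WT-C edgeR called 0 of the 104, where 18 had an unadjusted p below 0.05 and DESeq2 called 4. Over all genes these were 1512 and 116. For the interaction edgeR called 0 of the 104, where 13 had an unadjusted p below 0.05 and DESeq2 called 2. Over all genes these were 2751 and 190.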

How the data were processed

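Per the labels, TruSeq Stranded Total RNA Gold libraries were made from striatal RNA extracted with TRIzol or a miRNeasy kit. The submitters' processing notes name HISAT2, bcl2fastq 2.20 and the build GRCm38. The sources used here do not state the aligner settings or whether counting used the strand.

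Per the file headers, the deposited values tested were StringTie estimated counts per gene, which were all whole numbers and needed no rounding; plain counts had been assumed when the tests were designed. Per the file headers, a second deposited signal is Cuffdiff fragments scaled between libraries. The authors deposited FPKM without naming the tool. For 626 genes the authors deposited a ratio of mean FPKM (R6/2-T over R6/2-C), its log2, and a p-value and q-value.

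Genes kept by filterByExpr (23453) were tested with edgeR 4.0.16 (TMM scaling, robust quasi-likelihood F test, two-sided) in 1 model of the 4 groups with 12 libraries. P-values were adjusted over all genes by Benjamini-Hochberg, and a gene is called at an adjusted p under 0.05. Alternatives used DESeq2 1.42.0, limma-trend 3.58.1 on log2(FPKM + 0.1), log2(FPKM + 1) and log2(scaled fragments + 1), RLE scaling, no filter, the 2 groups alone, the replicate number as a block, a loess correction for GC content and length (GENCODE M21), and each library left out. The tests were checked on simulated data. The members, gene lists and marker lists were chosen with earlier results of these data known. Every member is named, with values per library for members called in at least 1 comparison and for the most abundant member of each subfamily. Of each other list, up to 4 called genes with the smallest p are named, apart from some that are not reported here. StringTie counts are estimates and not independent molecules, so no counting interval is given.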

Additional observations from a re-analysis of the deposited data

How the results depend on the processing

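Of 31 member calls in the 2 genotype comparisons, 15 held under every alternative and 16 were lost under at least 1, and none reversed in the 463 values recomputed. The number of members called in R6/2-C against WT-C was 15, against 7 with only the 2 groups fitted, and 7 to 13 with a library left out: 9 and 7 without R6/2-C 1 or 3, 7 and 8 without WT-C 1 or 2. The number was 22 with DESeq2, 21 on the scaled fragments, 18 on either log2 FPKM scale and 17 with the GC and length correction. In R6/2-T against WT-T it was 16, and 11 to 22 with a library left out. There it was 22 with DESeq2, 23 on the scaled fragments, 20 on either log2 FPKM scale and 18 with the GC and length correction. In R6/2-T against R6/2-C it was 0, against 1 on the scaled fragments and 4 with DESeq2, and 0 to 4 with a library left out (4 without R6/2-C 2). It was 0 throughout in WT-T against WT-C and for the interaction. With the GC and length correction the median of the members was -0.24 in R6/2-C against WT-C, beside -0.38 without it.

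Over all genes, calls in R6/2-C against WT-C were 2131 (1142 higher, 989 lower), against 3484 with DESeq2, 454 with the 2 groups alone (145 higher, 309 lower) and 1199 with the replicate block, 2882 (1841 higher, 1041 lower) with the GC and length correction, and 803 to 2256 with a library left out. In R6/2-T against WT-T they were 5304, against 6696 with DESeq2, 5995 on the scaled fragments and 4475 with the GC and length correction, and 2760 to 4812 with a library left out. In R6/2-T against R6/2-C they were 16, against 482 on the scaled fragments, 1741 with DESeq2, 50 and 52 on log2(FPKM + 0.1) and log2(FPKM + 1), 7 with the 2 groups alone, 4 with the replicate block, and 2 to 1197 with a library left out (1197 without R6/2-C 2). In WT-T against WT-C they were 1, against 4 on the scaled fragments, 116 with DESeq2, 4 and 3 on log2(FPKM + 0.1) and log2(FPKM + 1), 10 with the GC and length correction, 2 without the filter, and 1 to 11 with a library left out. For the interaction they were 1, against 0 on the scaled fragments, 190 with DESeq2, 0 with the GC and length correction, 2 without the filter, 0 with the replicate block, and 0 to 29 with a library left out. The causes were not tested.

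Deviations of same-numbered libraries correlated at -0.21 to 0.20, so the numbers were not taken to pair the libraries. With the replicate block 10 members were called in R6/2-C against WT-C, 14 in R6/2-T against WT-T and 0 in the other comparisons. A count test on fragments recovered from the scaled values was planned and not run, because the values did not come out as whole fragments closely enough. A left-out library leaves 2 in its group, and 6 members under 1 FPKM rest on few reads.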
